A study of Mus musculus with 12 samples.

Results

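The aminoacyl-tRNA synthetases are the enzymes that join each amino acid to its transfer RNA (tRNA), and they were followed in muscle RNA and in the open chromatin of cultured myotubes from one study of cancer cachexia. Members were taken by gene symbol: 36 of 20194 genes in the RNA table, 20 cytosolic and 16 mitochondrial, the mitochondrial ones having names that end in 2. Of 38244 peaks of open chromatin, 56 were named for 33 of these genes, 42 of them for cytosolic and 14 for mitochondrial members, and Ears2, Hars2 and Rars2 had no peak under their own name. A further 2 RNA rows, Dtd1 and 4930503L19Rik, share only an older alias with Hars2 and Lars and would bring the rows to 38. They are other genes and were left out of every count below.

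PolyA RNA came from muscle of C57BL/6 mice that were injected with PBS or, subcutaneously, with 500000 LLC cells, a line of Lewis lung carcinoma, with tissue taken on day 22 and 3 libraries per group. The labels do not name the muscle. ATAC-seq, which reads open chromatin through cuts by the Tn5 transposase, came from C2C12 cells, a mouse myoblast line with the C3H genotype that was differentiated to myotubes in horse serum. A set of 3 libraries was kept in control medium and 3 spent 24 hours in medium taken from C26 cells, a mouse colon carcinoma line, so the RNA and the chromatin differ in tumour line, material and exposure time. RNA libraries held an estimated 17.0 to 20.1 M tags (M, mega), and ATAC libraries 10.1 to 18.2 M tags. The RNA depth was estimated from the steps between low deposited values of short genes, taking the step as 1 read end. On that estimate a member had 83 (Pars2, PBS 1) to 7988 read ends (Eprs, LLC 3). The wells were seeded in triplicate, and the labels do not give separate mice or cultures for the libraries, so the p-values measure the spread between these libraries, which may be technical.

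Cytosolic synthetases feed the ribosomes that make nearly all muscle protein, while the mitochondrial enzymes, also encoded in the nucleus, serve the few proteins made inside mitochondria. Many cytosolic synthetase genes are targets of ATF4, the transcription factor of the integrated stress response, which is made when amino acids run short or unfolded protein builds up. Some of the cytosolic enzymes are held in one multisynthetase complex, and the Gars and Kars genes each give a cytosolic and a mitochondrial form. No separate mitochondrial enzyme for glutamine is used in mammals; glutamyl-tRNA is converted there by the GatCAB amidotransferase.

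The sequences that ATF4 is known to bind, C/EBP-ATF composite elements, were looked for in the 250 bases before each start site, because they are the usual route by which ATF4 reaches synthetase genes. Windows from RefSeq (GRCm38.p6) matched 27 members, 13 cytosolic and 14 mitochondrial; Cars, Hars, Lars, Nars, Rars, Vars, Wars, Hars2 and Pars2 had none. The composite, searched as TGATGNAA or, on the other strand, TTNCATCA, was found in 3 members, Aars, Gars and Tars, and in 3.45% of all 32851 windows. All 3 windows are shown 5′ to 3′ along the gene with the composite in capitals. They lie at chr8:111033592-111033841 (plus strand), chr6:55037751-55038000 (plus strand) and chr15:11399659-11399908 (minus strand), and they end at the base before the start site.
Aars: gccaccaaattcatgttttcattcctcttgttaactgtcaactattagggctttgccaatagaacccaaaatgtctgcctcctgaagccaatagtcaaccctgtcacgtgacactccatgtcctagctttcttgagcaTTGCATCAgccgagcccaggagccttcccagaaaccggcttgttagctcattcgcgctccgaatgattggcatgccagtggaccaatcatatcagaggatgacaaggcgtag
Gars: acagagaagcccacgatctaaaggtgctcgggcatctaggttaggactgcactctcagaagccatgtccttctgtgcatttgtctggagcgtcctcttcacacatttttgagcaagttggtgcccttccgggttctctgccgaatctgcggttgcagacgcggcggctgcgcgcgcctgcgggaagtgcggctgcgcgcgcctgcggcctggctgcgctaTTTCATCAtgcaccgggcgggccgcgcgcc
Tars: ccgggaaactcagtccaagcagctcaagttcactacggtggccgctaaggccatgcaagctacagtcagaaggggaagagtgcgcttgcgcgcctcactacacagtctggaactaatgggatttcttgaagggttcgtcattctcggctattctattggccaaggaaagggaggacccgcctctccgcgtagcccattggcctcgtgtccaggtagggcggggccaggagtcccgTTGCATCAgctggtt
The composite began 112 bases before the start of Aars, 30 before that of Gars and 15 before that of Tars, in each case inside the gene's own ATAC peak. No mitochondrial member had a match, which says only that these letters are not in those windows. The E-box CACGTG was found in Aars, Farsb and Iars and in 6.02% of all windows. CCAAT or ATTGG stood in 12 of the 27 members and in 33.8% of windows, the GC box GGGCGG or CCGCCC in 17 members and 32.7% of windows, and the ETS motif CCGGAAG or CTTCCGG in 7 members and 6.91% of windows. None of the 3 composites overlapped a match of another motif.

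Muscle RNA levels, given as FPKM (fragments per kilobase of exon, scaled to library size), had the higher median in the cytosolic class, and the classes overlapped. Cytosolic members averaged 11.5 to 47.0 FPKM over the 6 libraries with a median of 23.4, and mitochondrial members 1.33 to 19.5 FPKM with a median of 6.72. Kars, the lysine enzyme, had the highest mean. Its values were 41.2, 46.8 and 47.2 FPKM in PBS 1 to 3, and LLC 1 to 3 had 48.2, 52.7 and 45.8 FPKM. Nars, the asparagine enzyme, followed at 39.1, 45.3 and 45.6 FPKM in PBS and 46.3, 46.3 and 42.7 FPKM in LLC muscle, so its libraries overlapped those of Kars. Eprs, a fused enzyme for glutamate and proline, came next with 35.3, 34.5 and 29.7 FPKM in PBS and 35.9, 36.5 and 40.9 FPKM in LLC muscle. At the other end stood 3 mitochondrial enzymes whose levels overlapped one another. Ears2, for glutamate, had 1.22, 1.005 and 1.315 FPKM in PBS and 1.53, 1.33 and 1.57 FPKM in LLC muscle. Wars2, for tryptophan, had 1.61, 1.33 and 1.25 FPKM and then 1.59, 1.30 and 1.38 FPKM. Pars2, for proline, had 1.10, 1.67 and 1.95 FPKM and then 1.39, 1.70 and 1.31 FPKM. Eprs and its partners Ears2 and Pars2 thus lay near opposite ends of the range of members.

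**Figure D1:**
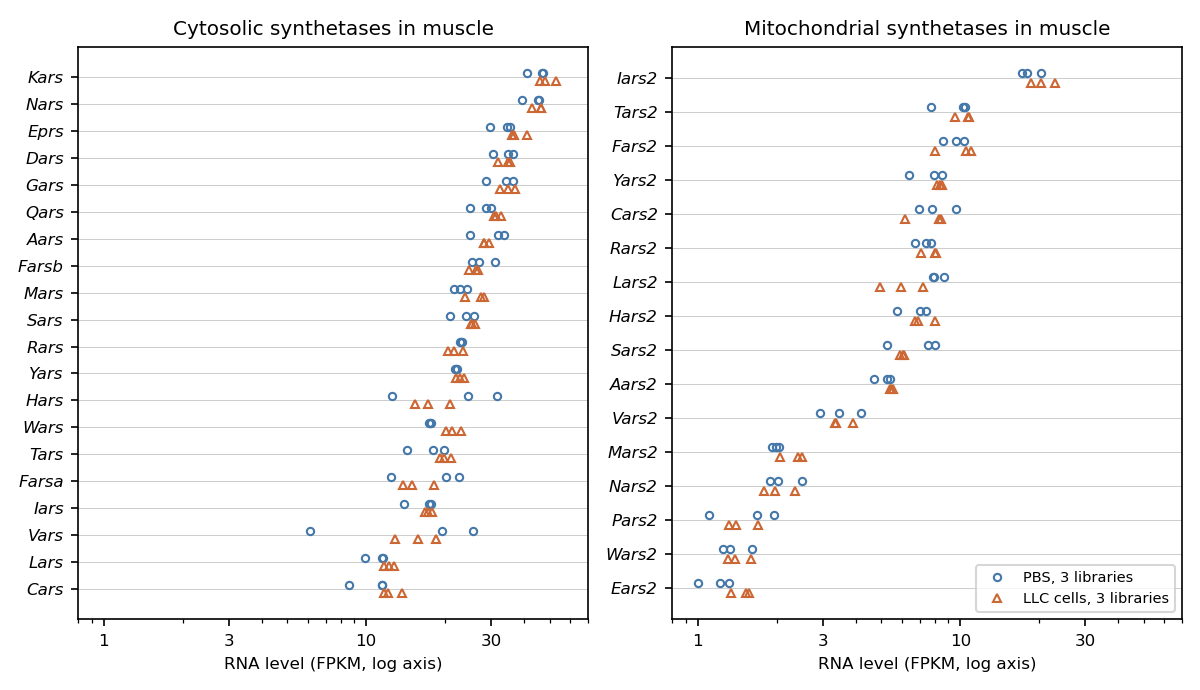
RNA level of each synthetase (FPKM, log axis) in the 3 PBS libraries (circles) and the 3 LLC libraries (triangles), with cytosolic members on the left and mitochondrial members on the right, ordered by mean. The groups overlap for most members, the cytosolic means run from 11.5 to 47.0 FPKM and the mitochondrial means from 1.33 to 19.5 FPKM.

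Where a cytosolic and a mitochondrial enzyme charge the same amino acid, the cytosolic transcript was the higher in all 6 libraries for 15 of 16 pairs, with a median ratio of means of 3.38. The ratio ran from 26.7 for Eprs over Ears2 to 1.46 for Cars over Cars2, the cysteine enzymes, among those 15. Isoleucine was the exception: Iars2 had 17.1, 20.2 and 18.03 FPKM in PBS and 20.4, 18.6 and 22.9 FPKM in LLC muscle, and the ratio of Iars to Iars2 was 0.859. Iars, the cytosolic form, was above Iars2 in 1 library, PBS 1, at 17.6 FPKM. Summed over the class, cytosolic members gave 443, 520 and 527 FPKM in PBS 1 to 3 and 506, 534 and 507 FPKM in LLC 1 to 3. Mitochondrial members gave 87.7, 104 and 106 FPKM and then 103, 96.9 and 105 FPKM. The ratio of the sums lay between 4.82 and 5.51 in the 6 libraries, with overlap of the groups.

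**Figure D2:**
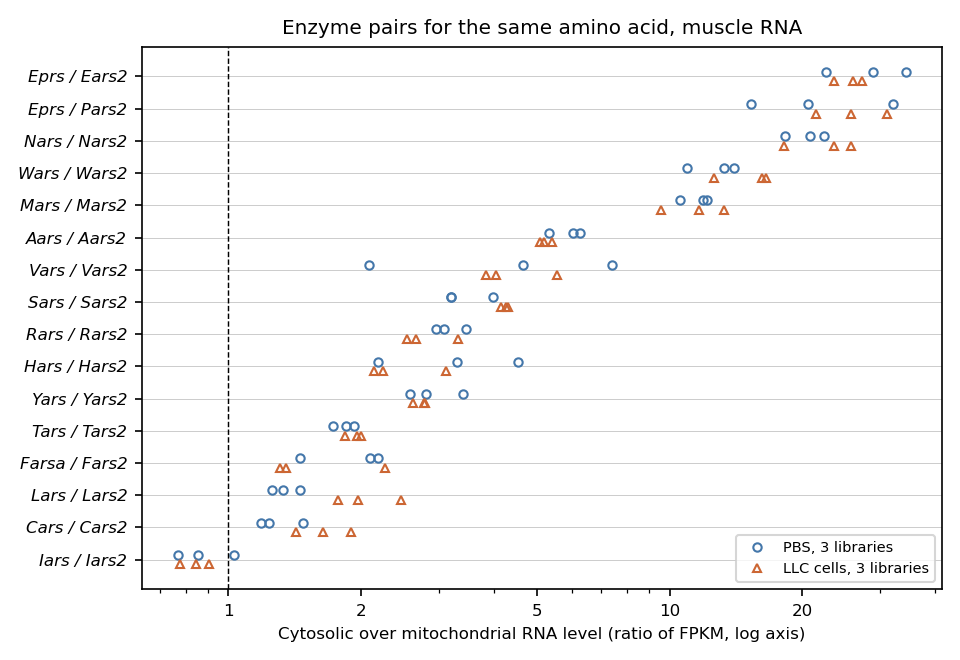
Ratio of cytosolic to mitochondrial RNA level (FPKM, log axis) for 16 enzyme pairs in each of the 3 PBS (circles) and 3 LLC libraries (triangles); the dashed line marks equal levels. Iars over Iars2 lies around 1 and the 2 Eprs pairs lie highest, while the LLC libraries lie above all PBS libraries for Lars over Lars2 and for Sars over Sars2.

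No synthetase passed the test across all genes between tumour-bearing and PBS muscle. All 36 members passed the filter of a mean of at least 1 FPKM, and 0 of 36 had an adjusted p under 0.05 with limma on log2(FPKM + 1), beside 0 of 12981 genes tested (0%). At an unadjusted limma p under 0.05, 1 member was higher (5.82% of all genes) and 1 lower (1.82% of all genes); these were Wars and Lars2. The 95% interval of the difference lay within a log2 change of 1 in either direction for 34 of 36 members, Vars and Hars being the others. Reads were counted on both strands, so for 5 members whose span overlaps another gene, among them Farsb with Sgpp2 and Mars with Ddit3, reads of the neighbour cannot be told apart. In bulk muscle, fewer cells of a type and less RNA per cell cannot be told apart.

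Wars, the cytosolic tryptophan enzyme on chromosome 12 from 108860030 to 108893198 (mm10), had the smallest p. Its values were 17.7, 17.6 and 17.4 FPKM in PBS 1 to 3, and LLC 1 to 3 had 20.1, 21.1 and 22.9 FPKM. All LLC libraries lay above all PBS libraries, which differed from one another by under 1 FPKM. The limma log2 difference was 0.27 (SE 0.10, unadjusted p = 0.037, adjusted p = 0.608). Wars is also induced by interferon gamma in many cells. Its partner Wars2 had a log2 difference of 0.02 (limma adjusted p = 1.0).

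Lars2, the mitochondrial leucine enzyme on chromosome 9 from 123366927 to 123462675, lay on the low side. It had 7.87, 7.96 and 8.70 FPKM in PBS muscle and 5.95, 4.95 and 7.24 FPKM in LLC muscle. All LLC libraries lay below all PBS libraries. The limma log2 difference was -0.39 (SE 0.15, unadjusted p = 0.040, adjusted p = 0.617). Lars, the cytosolic leucine enzyme, had 9.86, 11.6 and 11.5 FPKM and then 11.7, 12.2 and 12.8 FPKM, with a limma log2 difference of 0.14 (SE 0.11, adjusted p = 0.993). Lars over Lars2, a pair singled out after its values were seen, had a ratio of means of 1.34 in PBS and 2.02 in LLC muscle, with 1.25, 1.45 and 1.33 in PBS libraries and 1.96, 2.46 and 1.77 in LLC libraries. Of the 16 pairs, 2 had every LLC ratio above every PBS ratio and 0 had the reverse. The other was Sars over Sars2, with 3.97, 3.19 and 3.20 in PBS and 4.30, 4.26 and 4.14 in LLC libraries. No share over other gene pairs was worked out, so the 2 pairs are not set against a background. For single genes, an unlike measure, 9.5% were higher and 3.94% lower without overlap.

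Among the other cytosolic members the groups did not overlap for Cars, Qars, Eprs and Lars. Cars, for cysteine, had 8.61, 11.5 and 11.4 FPKM in PBS and 12.1, 13.6 and 11.7 FPKM in LLC muscle. Qars, for glutamine, had 24.96, 28.7 and 30.0 FPKM and then 32.8, 31.2 and 30.7 FPKM. The nearest libraries of the 2 groups were thus less than 1 FPKM apart for both genes, and their log2 differences of 0.23 and 0.18 had limma adjusted p of 0.923 and 0.925. Mars, for methionine, had 22.7, 24.2 and 21.6 FPKM against 23.9, 27.4 and 28.1 FPKM, and Tars, for threonine, 14.3, 19.8 and 17.9 against 19.1, 21.1 and 19.7 FPKM, both with overlap. In all, 8 of 36 members had every LLC library above every PBS library, 5 of them cytosolic and 3 mitochondrial, beside 9.5% of all genes. Only Lars2 had every LLC library below every PBS library, beside 3.94% of all genes.

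Of the mitochondrial members Ears2, Mars2 and Aars2 were those with every LLC library higher, each by a narrow margin. The nearest libraries had 1.315 (PBS 3) and 1.333 FPKM (LLC 2) for Ears2 and 2.044 (PBS 3) and 2.065 FPKM (LLC 2) for Mars2. For Aars2 they had 5.375 (PBS 2) and 5.382 FPKM (LLC 3). Mars2, for methionine, had 1.91, 1.99 and 2.04 FPKM in PBS and 2.49, 2.07 and 2.41 FPKM in LLC muscle, a limma log2 difference of 0.15 (SE 0.12, adjusted p = 0.996). Ears2, whose values are given above, had a difference of 0.19 (SE 0.14, limma adjusted p = 0.982). Sars2, for serine, had 5.26, 7.52 and 8.04 FPKM and then 6.04, 5.89 and 6.09 FPKM, with the LLC libraries inside the PBS range.

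By class, 15 of 20 cytosolic members had a log2 difference above 0 with a median of 0.08, and 11 of 16 mitochondrial members with a median of 0.06. Over all genes tested 53.0% were above 0 and the median was 0.01. Without PBS 1 the medians were 0.034 for cytosolic and 0.0001 for mitochondrial members, beside -0.071 for all genes tested. No test was made over the members. In 7 of 16 pairs both partners were above 0, in 9 the signs were opposite and in 0 both were below 0. Of the 13 cytosolic members on a list of known ATF4 targets 12 were above 0 (median 0.11), Aars being the exception. Of the 7 others 3 were (median -0.07). Without PBS 1, Aars, Gars, Nars and Vars on that list were below 0 (-0.19, -0.03, -0.01 and -0.49), and its other members above. Listed members summed to 267, 315 and 311 FPKM in PBS and 310, 329 and 321 FPKM in LLC muscle, with overlap. Of the 8 enzymes of the multisynthetase complex 7 were above 0 (median 0.13), with Rars below, and 8 of 12 cytosolic members outside it (median 0.06). Without PBS 1, Dars of the complex was below 0 as well (-0.06). Complex enzymes summed to 205, 221 and 213 FPKM in PBS and 228, 233 and 230 FPKM in LLC muscle without overlap. Members outside the complex summed to 283 ± 40.0 and 285 ± 13.5 FPKM (SD, n = 3). Of the 8 complex enzymes, 3 had no overlap on their own. How often sums over other gene sets are without overlap was not worked out, so the complex sum is not set against a background.

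**Figure D3:**
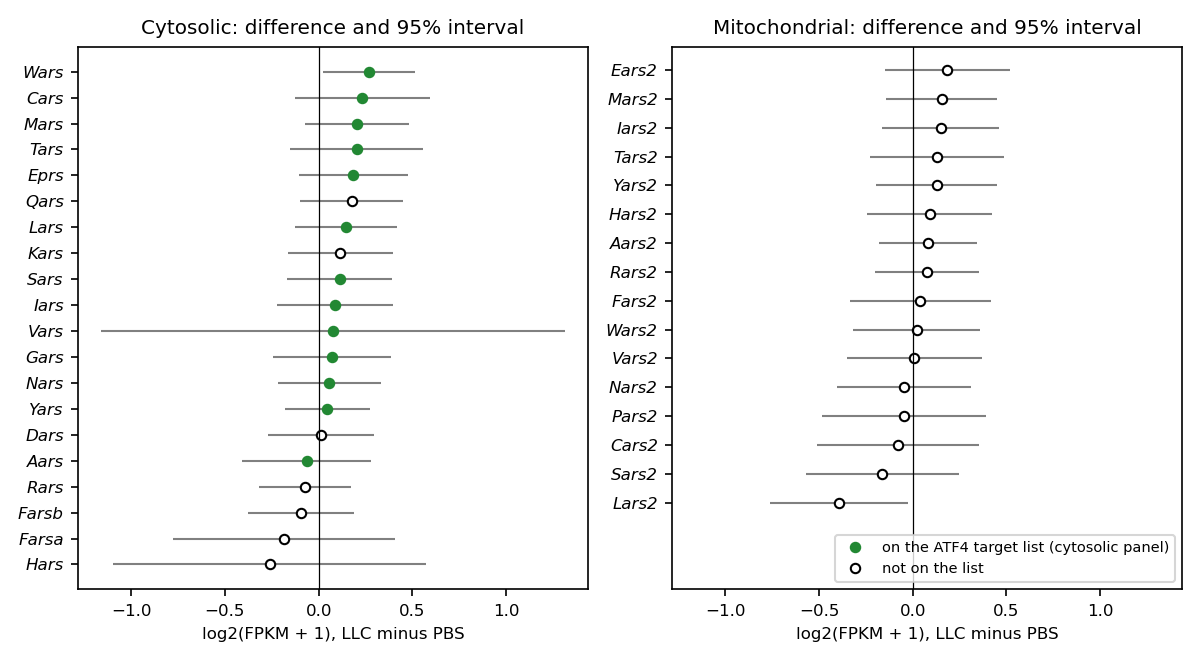
Limma difference in log2(FPKM + 1) between LLC and PBS muscle for each synthetase, with its 95% interval, for cytosolic members (left, filled points on the ATF4 target list) and mitochondrial members (right). Intervals of Wars and Lars2 do not reach 0, at 0.27 and -0.39, and Vars and Hars have the widest intervals.

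The largest spread lay within the groups. Vars, the valine enzyme, ran 4.18-fold from 6.12 FPKM in PBS 1 to 25.6 FPKM in PBS 3, with 19.4 FPKM in PBS 2 and 12.9, 18.5 and 15.7 FPKM in LLC 1 to 3. Hars, for histidine, had 12.6, 24.5 and 31.7 FPKM in PBS and 17.2, 20.9 and 15.4 FPKM in LLC muscle. Farsa, the catalytic subunit of the cytosolic phenylalanine enzyme, had 12.5, 20.1 and 22.5 FPKM and then 14.9, 18.2 and 13.8 FPKM, whereas its partner subunit Farsb ran from 24.6 to 30.9 FPKM with its highest value in PBS 1. At the steady end Yars, for tyrosine, stayed between 21.7 and 23.6 FPKM in all 6 libraries, and Rars, for arginine, between 20.4 and 23.5 FPKM. PBS 1 was the lowest library for 24 of 36 members (66.7%) and for 49.6% of all genes tested.

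Markers of other cells varied widely between libraries, and the lists did not share one pattern. The 10 neutrophil and marrow markers summed to 139, 6820 and 12856 FPKM in PBS 1 to 3 and to 6452, 11532 and 198 FPKM in LLC 1 to 3, with 0 of 10 at 0 in all libraries. The 8 cycling-cell markers summed to 6.86, 186 and 287 FPKM and then 57.6, 122 and 13.5 FPKM. Vars, Hars and Farsa had their lowest PBS value in PBS 1 and 2 of them, Hars and Farsa, their lowest LLC value in LLC 3. Without PBS 1 alone the log2 difference of Vars was -0.49, that of Hars -0.62 and that of Farsa -0.43 (limma adjusted p of 0.197 and above). These genes were singled out after their values were seen. PBS 1 was their lowest PBS library, so leaving it out had to lower their differences and tests nothing about the markers. Without PBS 1 and LLC 3 the log2 difference of Vars was -0.50, against 0.08 with all libraries, that of Hars -0.53 against -0.26 and that of Lars2 -0.54 against -0.39. Wars kept a difference of 0.22 there, and 0 members were called by limma. At an unadjusted limma p under 0.05 there were 3 members, each lower (Hars, Lars2 and Sars2), beside 10.5% of all genes lower at that level. Lars2 and Sars2 had their lowest PBS value in PBS 1 and their highest LLC value in LLC 3. Leaving both libraries out thus had to lower their differences. Endothelial markers had 7 of 8 members above 0 and summed to 153 to 176 FPKM in PBS and 277 to 328 FPKM in LLC muscle, and 8 epidermal markers to 1.36, 10.4 and 137 FPKM in PBS and 1492, 77.0 and 612 FPKM in LLC 1 to 3. B cell markers summed to 13.7, 109 and 166 FPKM in PBS 1 to 3 and 14.0, 9.35 and 82.3 FPKM in LLC 1 to 3, so LLC 3 was the highest LLC library there and the lowest for the neutrophil and cycling lists. Erythroid markers summed to 17.3, 449 and 771 FPKM and then 63.3, 249 and 36.1 FPKM. Bone and tendon markers summed to 483, 751 and 488 FPKM and then 269, 103 and 49.6 FPKM, without overlap, and 8 of 8 were below 0 (median -2.21). Slow-fibre markers summed to 590, 169 and 174 FPKM and then 1274, 944 and 487 FPKM, and 8 of 8 were above 0 (median 2.07). The part of these markers in the synthetase values was not tested. The 8 muscle markers, led by Ckm and Acta1, summed to 25407 to 33909 FPKM in every library.

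Genes that work with the synthetases gave no call either. Atf4 itself had 103, 125 and 137 FPKM in PBS and 113, 148 and 126 FPKM in LLC muscle. Of 25 other ATF4 targets tested 11 were above 0 (median -0.02), and 3 were higher at an unadjusted limma p under 0.05, Chac1, Ddit4 and Stc2. Chac1, which degrades glutathione, had 37.7, 21.1 and 35.96 FPKM in PBS and 57.3, 90.9 and 101.2 FPKM in LLC muscle (limma adjusted p = 0.324). Asns, asparagine synthetase and a classical ATF4 target, had 1.63, 10.3 and 14.1 FPKM and then 6.00, 11.1 and 6.15 FPKM. Of 8 core genes of the integrated stress response 3 were above 0 (median -0.09). Eif2ak4, the kinase GCN2 that senses uncharged tRNA, was at 1.91 ± 0.322 and 2.47 ± 0.212 FPKM (SD, n = 3; limma adjusted p = 0.843).

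Scaffold proteins of the multisynthetase complex had differences below 0 while most of its enzymes were above 0. Aimp1 had 53.1, 57.0 and 56.4 FPKM in PBS and 53.1, 52.9 and 51.3 FPKM in LLC muscle, Aimp2 113, 88.9 and 77.0 and then 83.3, 65.2 and 70.8 FPKM, and Eef1e1 8.77, 15.2 and 17.985 and then 10.1, 13.8 and 8.86 FPKM. Their log2 differences of -0.08, -0.33 and -0.30 had limma adjusted p of 0.843 and above. Of the GatCAB subunits, Gatb had a difference of 0.12, Gatc of -0.13 and Qrsl1 of -0.22 (limma adjusted p of 0.887 and above). Of 13 mitochondrial translation factors 8 were above 0 (median 0.11). Mrrf, the mitochondrial ribosome recycling factor, led them with 7.15, 7.10 and 7.45 FPKM in PBS and 9.88, 9.68 and 11.5 FPKM in LLC muscle, without overlap (limma adjusted p = 0.365). Of 9 tRNA processing and partner genes 7 were above 0 (median 0.12), led by the tRNA methyltransferase Trmt1 at 17.2 ± 1.86 and 21.2 ± 0.629 FPKM (SD, n = 3; limma adjusted p = 0.626).

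In the myotubes, peaks are given in tags per 10 M, the authors' scale. In control 1, 27.0% of tags fell in peaks, against 13.1% and 17.9% in controls 2 and 3 and 12.0% to 13.5% with C26 medium. The median of all peaks on that scale was -0.54 in log2, C26 minus control. Values as deposited carry that shift. Scaling by the median of ratios divides each library by its typical ratio to the other libraries over all peaks. It assumes that most peaks do not change, and so puts the median near 0 by construction, here at -0.02. A true fall of most peaks and a difference in background between libraries cannot be told apart here. Calls made with scaling rest on that assumption, and synthetase peaks are given on both scales. As deposited, 0 of 56 member peaks were called by limma, against 3.03% of 37358 peaks tested (1.15% higher and 1.88% lower), and 29 had an unadjusted p under 0.05, 26 lower and 3 higher, beside 26.6% lower and 2.99% higher of all peaks at that level. Without control 1 limma called 6 of 56, beside 12.2% of all peaks, and without control 2 it called 38, 37 of them lower, beside 55.1% of all peaks (53.1% lower). With median-of-ratios scaling limma called 22 of 56, 8 higher and 14 lower, against 29.8% of all peaks (17.1% higher and 12.7% lower), and edgeR on recovered reads called 21, 7 higher and 14 lower, against 30.4% (17.6% higher and 12.8% lower).

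Promoters, the 32 member peaks within 1000 bp of a start, gave 14 lower and 1 higher with scaling (21.2% and 2.5% of all promoter peaks). With 1 peak per gene, 31 members had such a peak. Scaled, 17 of 18 cytosolic promoters lay below 0 with a median of -0.28, 10 of them called lower, and 11 of 13 mitochondrial promoters with a median of -0.23, 4 called lower. Over 10147 genes with a promoter peak the scaled median was -0.17 and 21.8% were called lower. As deposited, the medians were -0.81 (cytosolic), -0.76 (mitochondrial) and -0.69 (all genes), with 0 of 32 peaks called by limma, against 0.0464% higher and 0.965% lower of all promoter peaks.

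The share of promoter reads that fell in member promoters needs no scaling between libraries. It was not worked out for other sets of promoters, so it is not set against a background. Of every 10000 reads in promoter peaks, 30.2, 30.3 and 29.2 lay in synthetase promoters in controls 1 to 3 and 28.0, 27.8 and 28.4 with C26 medium, without overlap. Cytosolic promoters held 19.8, 19.3 and 19.1 and then 18.4, 17.7 and 17.95, and mitochondrial promoters 10.4, 11.0 and 10.2 and then 9.59, 10.0 and 10.5, so the mitochondrial share overlapped between the groups. No test was made over the members.

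Farsb, the regulatory subunit of the phenylalanine enzyme, had the promoter with the smallest p on both scales. As deposited it held 90.3, 44.2 and 57.8 tags in controls 1 to 3 and 28.9, 27.8 and 30.8 with C26 medium. Scaled, these became 50.4, 52.3 and 50.1 against 34.6, 35.7 and 34.8, a fall of 0.53 on the log2 scale (SE 0.13, limma adjusted p = 0.00176; 0.0867 as deposited). All C26 libraries lay below all controls on both scales. Yars2, for tyrosine in mitochondria, held 135.8, 72.6 and 89.97 tags in controls and 51.5, 49.3 and 46.7 with C26 medium as deposited, and Wars2 113.03, 54.7 and 67.2 and then 35.5, 34.0 and 42.3. Neither gene's groups overlapped. Scaled, Yars2 fell from 79.9 ± 5.28 to 59.3 ± 5.66 scaled tags (SD, n = 3; limma adjusted p = 0.00221) and Wars2 from 62.0 ± 3.36 to 44.7 ± 2.78 (limma adjusted p = 0.00242). These 3 promoters were called lower in each of the 6 scaled fits with 1 library left out. Sars, for serine, fell from 98.9 ± 5.78 to 77.3 ± 7.67 and Tars, for threonine, from 84.5 ± 3.83 to 65.6 ± 7.32 (limma adjusted p of 0.00585 and 0.00717), calls that ended without C26 3 (0.0536 and 0.0807). Sars held 97.1, 94.3 and 105.4 scaled tags in controls and 85.7, 75.8 and 70.6 with C26 medium, Tars 88.9, 82.7 and 81.8 and then 67.4, 71.8 and 57.5, and Farsa 44.4, 40.4 and 33.4 and then 30.9, 23.6 and 27.98. In each, every C26 library lay below every control. Farsa fell from 39.4 ± 5.57 to 27.5 ± 3.66 (limma adjusted p = 0.0135), a call that ended without control 1 or C26 2 (0.0703 and 0.103).

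The other 8 promoters called lower with scaling were those of Mars, Fars2, Gars, Dars, Aars2, Lars, Nars and Eprs, with scaled log2 differences from -0.50 to -0.25. Aars2, for alanine in mitochondria, held 39.4, 23.97 and 31.7 scaled tags in controls and 21.5, 20.1 and 23.6 with C26 medium, without overlap. Each of these 8 calls ended in 3 or 4 of the 6 fits with a library left out, and leaving out any one of the 6 libraries ended at least 3 of them, with limma adjusted p up to 0.421 (Eprs). Qars was the promoter called higher. Its peak held 75.5, 38.5 and 45.5 tags in controls and 45.7, 43.4 and 45.3 with C26 medium as deposited, where it overlapped and pointed down (log2 -0.18). Scaled it held 42.2, 45.5 and 39.4 against 54.8, 55.7 and 51.3 (log2 0.34, SE 0.13, limma adjusted p = 0.0338), and the call ended without control 1, control 3, C26 1 or C26 2 (up to 0.124). Aars, one of the genes with a composite, was at 73.2 ± 2.94 and 61.2 ± 5.17 scaled tags (SD, n = 3; limma adjusted p = 0.0692).

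Kars, Yars, Ears2, Hars2 and Rars2 share a start region with a gene on the opposite strand, and the peak over their start was named for that neighbour. Yars, whose peak was named for S100pbp, had 115, 106 and 99.8 scaled tags in controls and 90.8, 88.8 and 66.5 with C26 medium (log2 -0.39, limma adjusted p = 0.00367). Kars, named for Terf2ip, had a scaled difference of -0.36 (limma adjusted p = 0.0530), Ears2 of -0.21, Hars2 of -0.09 and Rars2 of 0.07. Such peaks cannot be assigned to 1 of the 2 genes. The peak over the Hars2 start is the Hars promoter peak, counted above as cytosolic. Members with a promoter peak of their own were not searched for such neighbours.

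**Figure D4:**
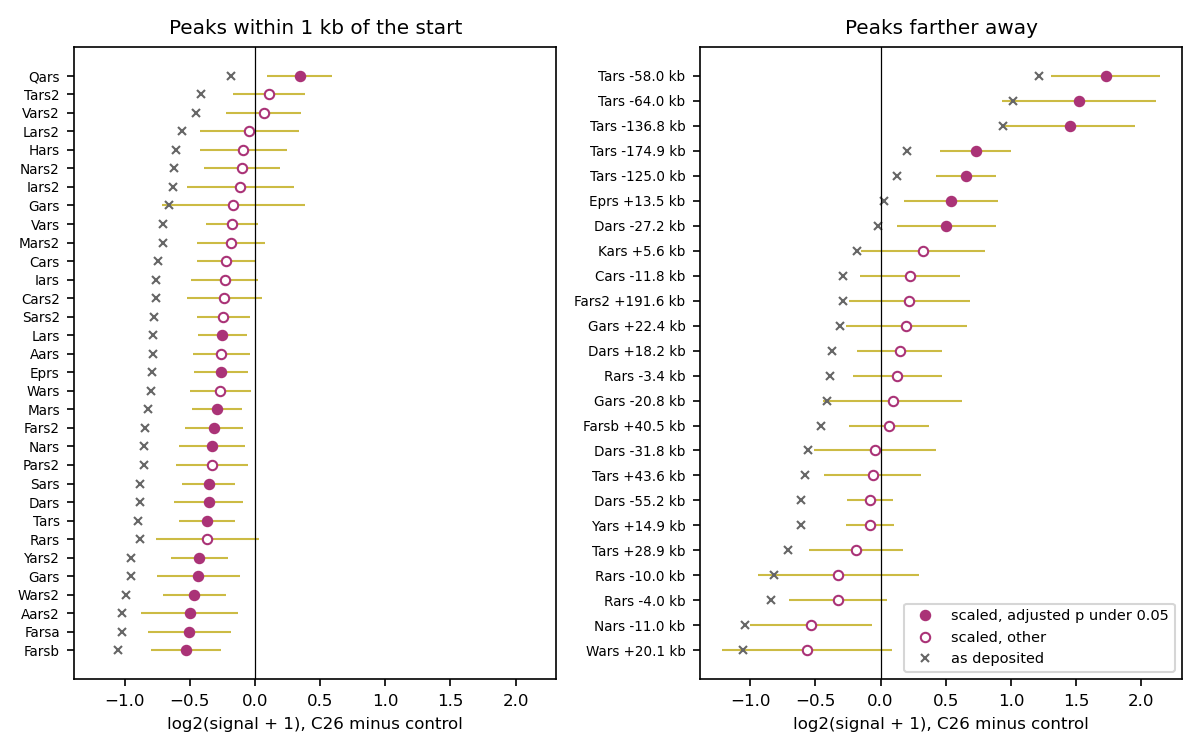
Difference in log2(signal + 1) between C26 and control medium for the 32 member peaks within 1 kb of a start (left) and the 24 farther away (right), with the 95% interval of the scaled value (lines), scaled values called at an adjusted p under 0.05 (filled) or not (open), and values as deposited (crosses). Crosses sit below the scaled points, and the 5 peaks upstream of Tars lie highest.

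Of the 24 peaks farther from a start, 23 were named for 11 cytosolic genes and 1 for a mitochondrial gene, Fars2. With scaling 7 were called higher and 0 lower by limma, against 23% and 9.27% of all such peaks; as deposited 0 were called, against 1.59% and 2.26%. Those 7 were 5 intergenic peaks upstream of Tars, 1 in an intron of Eprs and 1 upstream of Dars. Eprs, at 13.5 kb into the gene, had 23.2, 27.6 and 17.6 scaled tags in controls and 37.0, 30.8 and 31.7 with C26 medium (log2 0.54, SE 0.18, limma adjusted p = 0.0185), a call that ended without control 3 or C26 1 (0.144 and 0.0870). Dars, the aspartate enzyme, had 26.7, 19.98 and 17.1 against 29.5, 34.8 and 26.4 scaled tags at 27.2 kb upstream, with overlap (log2 0.50, limma adjusted p = 0.0387; 0.0568 with edgeR), and its call ended in 4 of 6 fits with a library left out.

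Tars, the threonine enzyme on chromosome 15 from 11383663 to 11399658 on the minus strand, thus held 5 of the 7. The peak with the smallest p of all member peaks lay 58.0 kb upstream at chr15:11457359-11457861. As deposited it held 20.6, 8.44 and 11.4 tags in controls 1 to 3 and 29.7, 29.2 and 33.0 tags with C26 medium, so every C26 library lay above every control even before scaling (log2 1.21, SE 0.42, limma adjusted p = 0.0734). Scaled, it rose from 10.4 ± 0.902 to 36.8 ± 1.05 tags (SD, n = 3), 3.52-fold. The log2 difference was 1.73 (SE 0.21, limma adjusted p = 4.18e-09, and 2.60e-11 with edgeR on recovered reads). Peak calling found it in 3 of the 6 libraries. A region listed through part of the libraries can be there because it is high in them, so its p is not independent of that listing.

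A second upstream peak lay 64.0 kb from the start at chr15:11463467-11463812 and held 9.98, 6.39 and 4.28 scaled tags in controls and 16.4, 27.7 and 19.3 with C26 medium (log2 1.52, SE 0.29, limma adjusted p = 6.74e-05). One at 137 kb, chr15:11536194-11536738, held 17.97, 12.4 and 5.57 against 31.8, 34.3 and 28.3 (log2 1.45, SE 0.25, limma adjusted p = 9.57e-06). Both were weak in controls, lowest in control 3, and in both every C26 library lay above every control once scaled. Peak calling found each in 4 of the 6 libraries, so the same limit holds for their p-values.

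The remaining pair were stronger in controls and rose less, and peak calling found both in all 6 libraries. At 125 kb, chr15:11524460-11524937, the peak held 49.4, 41.5 and 47.6 scaled tags in controls and 75.4, 71.4 and 72.4 with C26 medium (log2 0.65, SE 0.12, limma adjusted p = 1.44e-05). At 175 kb, chr15:11574302-11574825, it held 34.2, 28.8 and 31.7 against 52.9, 54.4 and 51.3 (log2 0.73, SE 0.14, limma adjusted p = 3.69e-05). All 5 were called higher with median-of-ratios scaling, in its 6 fits with a library left out, with quantile normalization and with edgeR. As deposited, 4 of them overlapped between the groups and 0 were called.

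Within the same library the upstream peaks can be set against the Tars promoter, a ratio in which any scaling of the library cancels. The 5 upstream peaks summed to 1.38, 1.20 and 1.21 times the promoter in controls 1 to 3 and to 3.15, 3.14 and 3.63 times with C26 medium. The means were 1.26 ± 0.105 and 3.30 ± 0.280 (SD, n = 3), 2.61-fold apart and without overlap. Both terms of the ratio moved: scaled, the upstream sum was 107 ± 13.9 and 215 ± 8.77 tags, 2.01-fold, and the promoter was lower, at 0.776 times its control level. The ratio was formed after the values were seen, from peaks picked for their rise, so it is a description without a test. Over the whole table the scaled median log2 difference was -0.16 for promoter peaks and 0.09 for peaks farther away. No such ratio was formed for other genes. The 2 Tars peaks downstream of the gene, at 28.9 and 43.6 kb past the start, summed to 0.607, 0.604 and 0.660 times the promoter in controls and to 0.646, 0.714 and 0.849 times with C26 medium. Those downstream peaks held 27.4 ± 2.87 and 25.2 ± 3.504 scaled tags in controls and 23.8 ± 1.61 and 24.0 ± 2.397 with C26 medium and were not called (limma adjusted p of 0.447 and 0.838). Peaks carry the name of the nearest start. Counted from the Tars start, the near end of the next protein-coding gene upstream, Npr3, is 440 kb away, and that of the next one downstream, Adamts12, is 50.4 kb away. These are distances to gene ends, not to start sites. The link of the upstream peaks to Tars rests on distance alone.

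**Figure D5:**
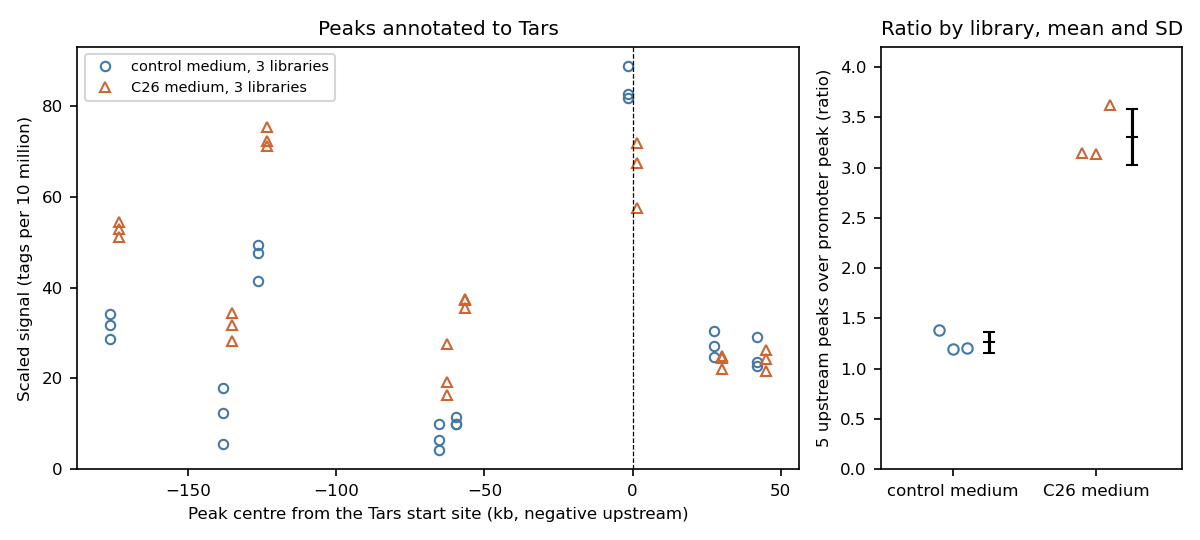
Left, scaled ATAC signal (tags per 10 M) of the 8 peaks named for Tars against the distance of the peak from the start site in kb, in 3 control (circles) and 3 C26 libraries (triangles), drawn slightly apart. Right, the sum of the 5 upstream peaks over the promoter peak in each library, with the mean and SD beside it, at 1.26 ± 0.105 in controls and 3.30 ± 0.280 with C26 medium.

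The remaining 17 peaks away from a start had scaled log2 differences between -0.57 and 0.32 and none was called by limma. The lowest was a peak in a Wars intron 20.1 kb from the start, with 14.5, 11.99 and 10.3 scaled tags in controls and 5.62, 14.3 and 5.91 with C26 medium, so the groups overlapped (-0.57, limma adjusted p = 0.187). An intergenic peak 11.0 kb from Nars held 41.6, 18.9 and 20.3 tags against 9.75, 10.4 and 15.9 tags as deposited, with every C26 library below every control, but overlapped once scaled (-0.53, limma adjusted p = 0.0765). A peak 4.04 kb from Rars held 27.2, 27.6 and 27.4 scaled tags in controls and 26.2, 19.2 and 20.2 with C26 medium (-0.33, limma adjusted p = 0.188). It lies outside Rars, in the 3' UTR of another transcript, so its name rests on distance alone. Of the 8 myotube markers 7 had a peak and 3 a peak within 1000 bp of the start, and the cell type of the cultures is labelled as myoblast.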

How the data were processed

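PolyA RNA-seq of muscle (6 libraries) and ATAC-seq of myotubes (6 libraries) were analysed from the deposited tables. The submitters' processing notes name HISAT2, Bowtie2, MACS2, HOMER, DESeq2, GRCm38 and mm10; the sources used here give no versions or settings. RNA values were deposited as FPKM from exons, both strands counted, mm10, per the file headers. ATAC signal was deposited as tags per peak of a merged peak list, scaled by the authors to 10 M (mega) tags per library, per the file headers. Deposited ATAC values were whole multiples of 1 read end (0.5 tag) for 100% of values within a tolerance of 0.1 reads, so whole reads were recovered.

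Members were matched by symbol; the members and all lists were chosen with earlier results of these data known. Low features were dropped, leaving 12981 of 20194 genes (mean 1 FPKM or more) and 37358 of 38244 peaks (mean 5 tags or more), which were tested with limma 3.58.1 (R 4.3.3) on log2(value + 1), so fold changes of low features are understated. Tests were two-sided with Benjamini-Hochberg adjustment over all features and a threshold of 0.05. Alternatives were median-of-ratios scaling, quantile normalization, edgeR 4.0.16 on recovered reads (ATAC), other pseudocounts and filters, each library left out and a replicate block. Values in every library are given for the 8 cytosolic and 5 mitochondrial members with the smallest RNA p, the 3 highest and 3 lowest members, and the 6 promoter and 6 other peaks with the smallest p as deposited, where no member peak passed the threshold; peaks called only with scaling are given by library in part; of the other lists, up to 3 genes each with the smallest p. Vars, Hars, Farsa, Yars, Rars and Asns were singled out after their values were seen. Simulated data were on the deposited scales only. The RNA test recovered 31 of 100 genes changed by log2 1 and 69 of 100 changed by log2 2 among 12981 genes. The ATAC test recovered 3 and 74 of 100 among 37358 peaks. Promoter sequences are from RefSeq (GRCm38.p6). Intervals are 95%. Tables and plots used Python 3.11.15, pandas 2.3.3, numpy 2.4.6 and matplotlib 3.10.9. Sample columns left unused numbered 0.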

Additional observations from a re-analysis of the deposited data

How the results depend on the processing

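In the RNA 0 members were called under every alternative run, the cytosolic median ran from 0.03 to 0.13 and the mitochondrial one from 0.00 to 0.11 with a library left out, and 16 of 36 members changed sign in at least 1 of 14 settings. ATAC counts followed the scaling. Against 0 of 56 peaks called as deposited, median-of-ratios scaling gave 22, quantile normalization 17 and edgeR 21, beside 29.8%, 29.4% and 30.4% of all peaks (3.03% as deposited); leaving out 1 library gave 0 to 38 as deposited (6 without control 1 and 38 without control 2, beside 12.2% and 55.1% of all peaks). Cytosolic promoter medians were -0.28, -0.24 and -0.28 under those 3 alternatives against -0.81 as deposited, and mitochondrial ones -0.23, -0.20 and -0.23 against -0.76. Median-of-ratios scaling with a library left out, chosen after seeing the data, gave 16, 18 and 13 calls without controls 1 to 3 and 17, 14 and 18 without C26 1 to 3, beside 23.1% to 25.9% of all peaks, with cytosolic medians of -0.31, -0.27, -0.29, -0.30, -0.27 and -0.27 and mitochondrial medians of -0.26, -0.22, -0.29, -0.26, -0.22 and -0.24. With a replicate block 0 RNA members and 0 peaks as deposited were called; with scaling and a replicate block, also chosen after seeing the data, 20 peaks were called, beside 29.4% of all peaks, with medians of -0.28 and -0.23. Libraries with the same number deviated together in 1 of 6 checks (RNA number 2, correlation 0.60; the others from -0.60 to 0.01), so the numbers were not read as pairs. A change of log2 1 was recovered for few simulated features, so changes of that size can be missed.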
